A study of Mus musculus with 16 samples.

Results

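Neurotrophic factors and their receptors were followed in the ageing mouse bladder through 8 genes: the ligands Bdnf, Ntf3, Artn and Gdnf and the receptors Ntrk2, Ntrk3, Ngfr and Ret. A probe was taken as a member when the accession printed for it on the array maps to one of these symbols, which gave 13 of 55681 probes and 8 of 37208 genes. RNA came from the dissected bladder body of C57BL/6 mice, with no transgene or treatment named in the labels, and was hybridised to Agilent SurePrint G3 one-colour arrays with 1 array per mouse. The 4 groups were mature (MAT, 12 months) males, aged (AGED, 27 to 30 months) males, MAT females and AGED females, with 4 arrays each. The question was how age changes gene expression of the bladder within each sex.

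Neurotrophins are secreted proteins that keep peripheral neurons alive, guide their axons and tune their excitability. Brain-derived neurotrophic factor (Bdnf) binds the receptor tyrosine kinase TrkB (Ntrk2), neurotrophin-3 (Ntf3) binds TrkC (Ntrk3), and both also bind the low-affinity receptor p75 (Ngfr), which sits on neurons and on Schwann cells. Glial cell line-derived neurotrophic factor (Gdnf) and artemin (Artn) belong to a separate family whose signal runs through the kinase Ret, together with co-receptors of the GFRα family. In the bladder, the ligands are made by urothelium, smooth muscle and other wall cells, and the receptors are carried by the sensory and autonomic nerves that run in the wall, whose cell bodies lie largely in ganglia outside it.

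Every direction below follows the labels of the arrays, and for the leading genes Chil3 (51.4-fold higher in AGED males) and AI593442 (at least 4.38-fold lower) these directions are opposite to those listed in the study. If the age labels were exchanged, every direction given here would turn. Of the 8 genes, Ntf3 was called between AGED and MAT males, where it was 2.10-fold lower, a call that was lost when any 1 MAT male was left out, and no gene was called in females. For Bdnf, the largest mean difference in males (2.22-fold higher in AGED males), the groups overlapped and the change was not called. All 4 probes of Ntrk3 were lower in every AGED female than in every MAT female, by 1.45-fold for the tested probe, although none reached the adjusted threshold. Of these probes, 1 was bright enough to be kept only because of the MAT females. Ngfr differed by more than 1 log2 unit between mice of 1 group in both male groups and in AGED females, alongside genes expressed by neurons. At an unadjusted p under 0.05, limma passed 3 of the 8 genes in males (Ntf3, Artn and Bdnf), 1 in females (Ntrk3) and 2 for the difference between the sexes (Ntf3 and Bdnf), against 16.2%, 10.5% and 9.87% of all genes tested.

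The promoter sequences of 2 ligands are shown because these had the called change and the largest mean difference. RefSeq's table (build GRCm38.p6) held windows for 6 of the 8 genes, and the 250 bases before each listed transcription start were searched on both strands for the GC box GGGCGG, the cyclic AMP response element (CRE) TGACGTCA, its core TGACG, which lies inside it, and the EGR motif GCGTGGGCG. Capitals mark a match, which reads as its reverse complement when it lies on the opposite strand. Ntf3 lies on the minus strand of chromosome 6 and has 2 windows, at chr6:126164961-126165210 and chr6:126166745-126166994, each with 1 GC box and none of the other motifs:
Ntf3 start 1: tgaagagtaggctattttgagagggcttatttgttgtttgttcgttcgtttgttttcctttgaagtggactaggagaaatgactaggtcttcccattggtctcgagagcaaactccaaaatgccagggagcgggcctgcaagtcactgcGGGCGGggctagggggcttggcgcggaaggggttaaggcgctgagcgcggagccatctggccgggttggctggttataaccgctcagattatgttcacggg
Ntf3 start 2: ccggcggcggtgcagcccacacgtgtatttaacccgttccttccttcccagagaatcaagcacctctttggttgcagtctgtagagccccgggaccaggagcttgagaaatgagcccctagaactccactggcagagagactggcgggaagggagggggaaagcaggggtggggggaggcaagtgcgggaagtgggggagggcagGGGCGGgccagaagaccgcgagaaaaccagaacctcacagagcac
Bdnf lies on the plus strand of chromosome 2 and has 7 windows. GC boxes lay in windows not shown, 2 at chr2:109676782-109677031 and 1 at chr2:109692777-109693026. The 1 window shown, at chr2:109692186-109692435, was the only one of the 7 with the CRE core:
Bdnf: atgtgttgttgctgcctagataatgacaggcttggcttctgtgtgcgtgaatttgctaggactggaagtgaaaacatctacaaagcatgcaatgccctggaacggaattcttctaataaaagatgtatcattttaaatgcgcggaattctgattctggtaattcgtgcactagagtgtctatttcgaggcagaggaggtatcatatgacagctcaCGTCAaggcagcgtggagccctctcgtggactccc
A GC box was held by 32.7% and the CRE core by 17.8% of 32851 windows of the same length. These shares are per window, and a gene with 7 windows has more places for a match. The Ntf3 windows had a GC content of 54.0% and 62.0% against a median of 52.4% over all windows.

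Values are log2 signals relative to the 75th percentile of the same array, so 0 is the signal of a probe brighter than 75% of the probes on that array. Levels of different probes cannot be set against each other. The tested probes of 6 genes were well above background on all 16 arrays. Those of Gdnf and Ret were well above background on 15, with 1 AGED male missing in each case. The dimmest array was AGED male 1, with 52.3% of its probes well above background against 58.7 to 68.2% on the other 15. All 12 urothelial and all 10 smooth muscle markers were well above background on every array. Slide 1 held the females and slide 2 the males, and in each slide the first row held MAT and the second AGED mice. Sex therefore cannot be told apart from slide, and age cannot be told apart from slide row.

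**Figure D1:**
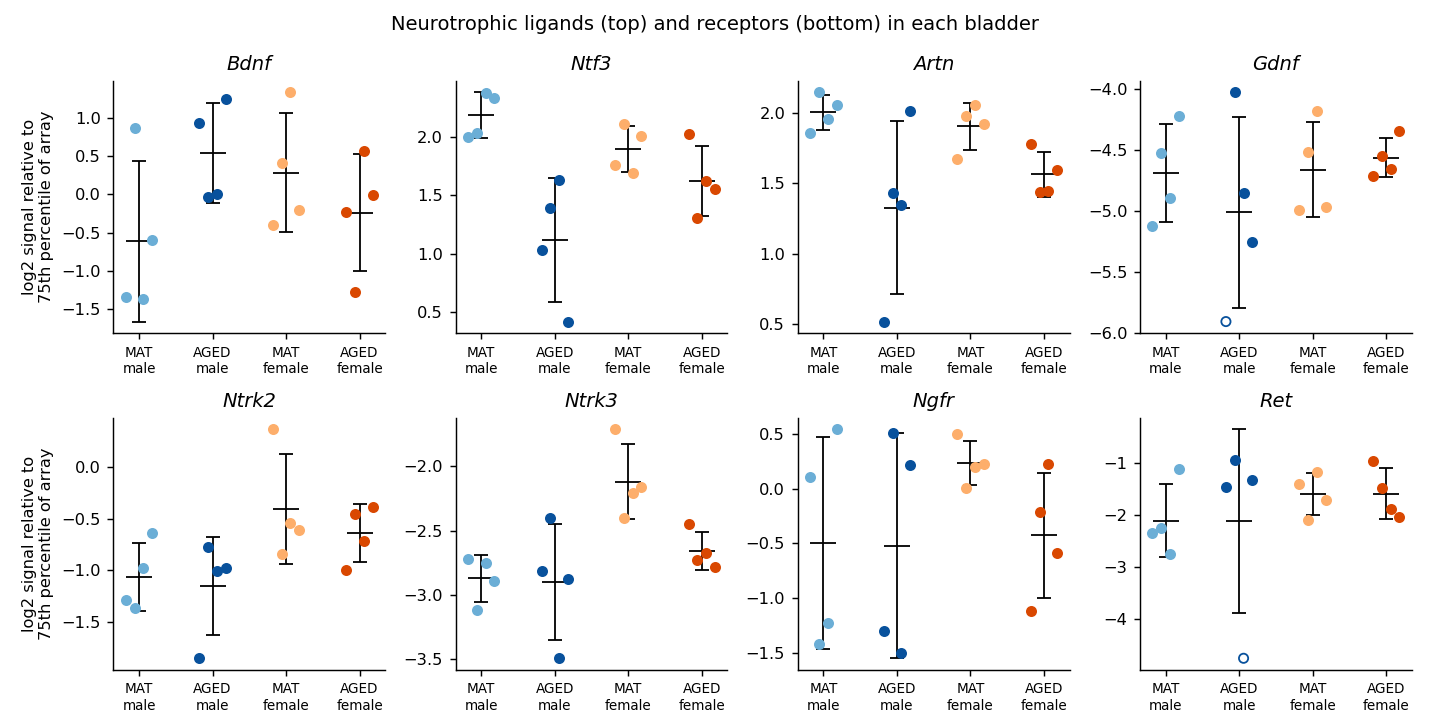
Log2 signal of the tested probe of each gene relative to the 75th percentile of the array (vertical axis, a separate scale per gene) in the 4 groups. Each point is 1 mouse, open points were not well above background, and bars give the mean ± SD of 4 arrays. The Ntf3 points of AGED males (0.42 to 1.63) lie below all those of MAT males (2.0 to 2.37).

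Among the ligands, Ntf3 was measured at 2.0, 2.03, 2.37 and 2.33 in the 4 MAT males and at 1.03, 1.39, 1.63 and 0.42 in the 4 AGED males. In females it was 1.76, 2.11, 1.69 and 2.01 at maturity and 2.02, 1.30, 1.62 and 1.55 at old age. Each AGED male lay below each MAT male, AGED male 4 was the lowest of all 16 mice, and the female groups overlapped. The change in males was -1.07 (SE 0.23) on the log2 scale, which limma called at an adjusted p of 0.0288, and the exact two-sided permutation test gave p = 0.0286, the smallest that 4 arrays against 4 allow. The same call was made for 0.851% of 26781 genes in males, 0.575% in the lower direction, and non-overlapping groups were seen for 7.82%, 3.91% with all AGED mice lower. In females the change was -0.27 (SE 0.23, limma adjusted p = 0.745). The male change lay below the female change by 0.80 (limma, 95% interval of the difference -1.49 to -0.11, unadjusted p = 0.0256, adjusted p = 0.421), which was not called. In a bulk sample, fewer cells of a type and less RNA per cell cannot be told apart.

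Ntf3's place in the order of the groups ran from MAT males (mean 2.18 ± 0.20, SD, n = 4) through MAT females (1.89 ± 0.20) and AGED females (1.62 ± 0.30) to AGED males (1.12 ± 0.53), and each neighbouring pair overlapped. With the males alone, the change of -1.07 had an SE of 0.26 and a limma adjusted p of 0.218. Without AGED male 4 the change was -0.83, and under normexp background correction it was -0.71, both under the 2-fold limit. Leaving out MAT male 1, 2, 3 or 4 gave changes of -1.13, -1.12, -1.0 and -1.02 with limma adjusted p values of 0.0533, 0.0549, 0.0924 and 0.0638. Over all alternatives the adjusted p ran from 0.0156 to 0.348.

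Bdnf was measured at -1.35, 0.87, -1.37 and -0.59 in MAT males and at 0.94, -0.03, 0.00 and 1.25 in AGED males. MAT male 2 lay among the AGED males, so the groups overlapped, and the other MAT males lay below all AGED males. The mean change of 1.15 (SE 0.53) was not called (limma adjusted p = 0.303, exact permutation p = 0.114). In females Bdnf was -0.40, 0.41, 1.33 and -0.20 at maturity and -0.23, -1.28, 0.56 and -0.01 at old age, a change of -0.53 (SE 0.53, limma adjusted p = 0.804). The female groups overlapped over most of their range. The changes of the sexes differed by 1.68 (95% interval 0.07 to 3.29, limma adjusted p = 0.491), which was not called among 26781 genes, 0.149% of which were.

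Artn was measured at 1.86, 2.14, 1.96 and 2.05 in MAT males and at 0.52, 1.43, 1.35 and 2.01 in AGED males. Of the AGED males, mouse 4 lay within the MAT range and mouse 1, on the dimmest array, lay farthest below it. The change was -0.68 (SE 0.23, limma adjusted p = 0.156, exact permutation p = 0.0857). It was -0.41 without AGED male 1 (limma adjusted p = 0.215) and -0.90 without AGED male 4 (limma adjusted p = 0.035, under 2-fold). It depended on the background correction: under normexp it was -1.49 with a limma adjusted p of 0.001, which is a call, and over all alternatives the adjusted p ran from 0.001 to 0.541. In females Artn was 1.67, 1.98, 2.06 and 1.92 at maturity against 1.78, 1.44, 1.44 and 1.59 at old age, a change of -0.34 (SE 0.23, limma adjusted p = 0.649, exact permutation p = 0.0571). Only AGED female 1 reached into the MAT female range.

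Gdnf was well above background on all arrays except that of AGED male 1. It was -5.13, -4.53, -4.90 and -4.22 in MAT males, -5.91, -4.03, -4.86 and -5.25 in AGED males, -4.99, -4.51, -4.18 and -4.97 in MAT females and -4.71, -4.55, -4.65 and -4.35 in AGED females. The groups overlapped in both sexes. The changes were -0.32 (95% interval -1.01 to 0.37) in males and 0.10 (-0.59 to 0.79) in females, and the limma adjusted p values were 0.649 and 0.958.

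**Figure D2:**
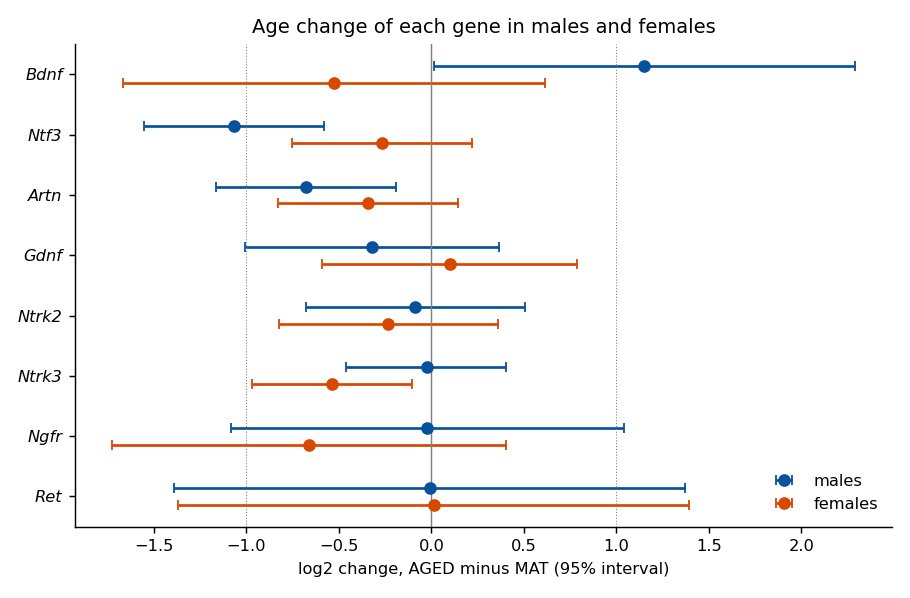
Log2 change from MAT to AGED (horizontal axis) of the 8 genes in males and in females, with 95% intervals from limma, unadjusted for the number of genes. Dotted lines mark a 2-fold change. The mean of Ntf3 in males (-1.07) lies past a 2-fold fall, and the intervals of Ntf3, Artn and Bdnf in males and of Ntrk3 in females do not reach 0.

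Among the receptors, Ntrk3 had 4 probes. With the tested probe it was -1.71, -2.40, -2.21 and -2.16 in MAT females and -2.45, -2.73, -2.67 and -2.78 in AGED females. In males it was -2.72, -3.12, -2.75 and -2.89 at maturity and -2.81, -2.40, -3.49 and -2.88 at old age. Each AGED female lay below each MAT female, with a gap of 0.05 between the nearest mice, while the male groups overlapped. The change in females was -0.54 (SE 0.20), with an exact permutation p of 0.0286 and a limma adjusted p of 0.377, which was not a call. Called genes made up 0.19% of those tested in females, and 10.8% had groups that did not overlap, 5.78% with all AGED mice lower.

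The other 3 probes of Ntrk3 gave female changes of -0.65, -0.63 and -1.18, again with no overlap between the groups and exact permutation p values of 0.0286 each. The probe with the change of -1.18 was well above background in 4 MAT females and in no AGED female, so its fold is a bound, at least 1.26-fold lower. This probe met the filter of 4 arrays only through the MAT females, where it is high. Its fall and its permutation p therefore cannot serve as separate support. All these probes measure RNA of 1 gene in the same 8 mice and are not independent of each other. In males the 4 probes changed by -0.03, 0.03, 0.14 and 0.56, the last from a probe well above background in 1 MAT and 1 AGED male. Ntrk3's changes in the sexes differed by 0.51 for the tested probe (95% interval -0.10 to 1.13, limma adjusted p = 0.598). With each kept probe fitted, the other 3 gave larger differences, none of them called. These were 0.68 (SE 0.32, limma adjusted p = 0.521), 0.77 (SE 0.33, limma adjusted p = 0.478) and 1.74 (SE 0.80). The last is that of the probe kept only through the MAT females.

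**Figure D3:**
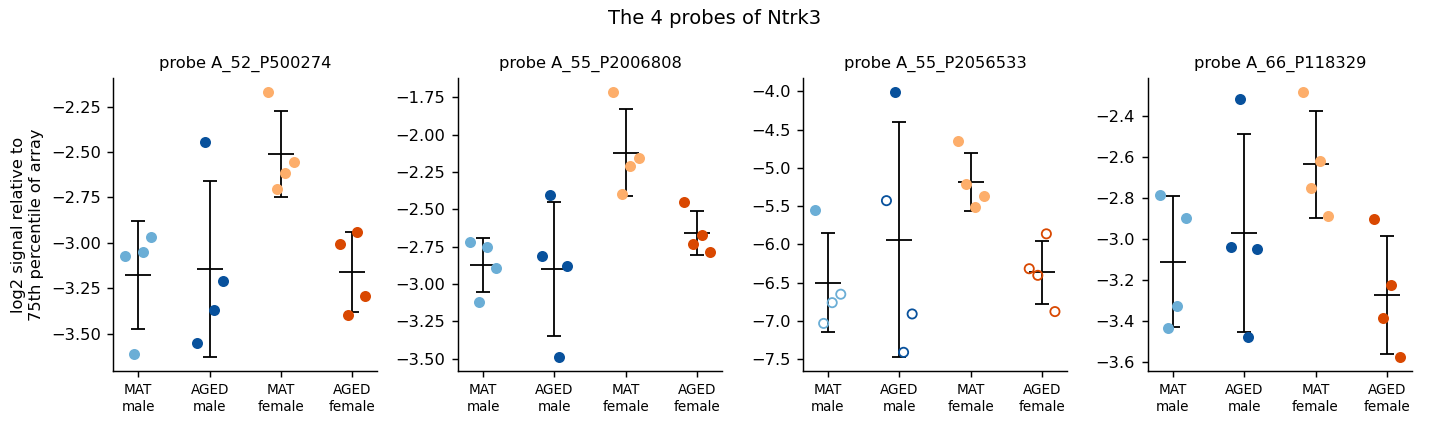
Log2 signal of the 4 probes of Ntrk3 relative to the 75th percentile of the array (vertical axis, a separate scale per probe) in the 4 groups. Points are mice, open points were not well above background, and bars give the mean ± SD of 4 arrays. In each panel all AGED females lie below all MAT females, and the males of both ages overlap.

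The order of the groups for Ntrk3 began with MAT females (mean -2.12 ± 0.29, SD, n = 4), followed by AGED females (-2.66 ± 0.15), MAT males (-2.87 ± 0.18) and AGED males (-2.90 ± 0.45). The last 3 groups overlapped their neighbours. MAT females (-2.40 to -1.71) lay above all MAT males (-3.12 to -2.72), a gap between the sexes that cannot be told apart from the slide. MAT female 1 was the highest mouse for all 4 probes among the females, and without it the change of the tested probe was -0.40.

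Ntrk2 was measured by 3 probes, of which 1 gave no array well above background. With the tested probe it was -1.29, -1.36, -0.97 and -0.64 in MAT males, -1.85, -0.78, -1.01 and -0.98 in AGED males, 0.37, -0.84, -0.54 and -0.61 in MAT females and -1.0, -0.46, -0.71 and -0.39 in AGED females. MAT female 1 stood above all other mice, and the groups overlapped in both sexes. The changes were -0.09 (95% interval -0.68 to 0.51) in males and -0.23 (-0.83 to 0.36) in females, with limma adjusted p values of 0.902 and 0.838. The second kept probe changed by -0.01 and -0.28.

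MAT female 1 also had the highest level of the 10 adipocyte markers (Adipoq, Plin1, Fabp4 and others). The level of a marker list is the median over its genes of the log2 signal less that gene's median over the arrays. For adipocytes it was 2.45 in MAT female 1, 0.67 to 1.06 in the other MAT females, -0.05 to 0.64 in AGED females, -2.95 to 0.16 in MAT males and -3.25 to -0.19 in AGED males. The list's median change was -0.26 in males and -0.88 in females, with no gene called. Its brightest genes Fabp4 and Plin4 changed by -0.01 and 0.17 in females, where Plin4 alone of the 10 had a change above 0. In females 2 passed an unadjusted limma p of 0.05, Lpl (-0.98) and Lep (named after their values were seen), both lower in AGED mice with no overlap. Of all genes tested in females, 5.85% were lower at that p and 5.78% had all AGED mice lower. Lep was well above background in the 4 MAT females and in no other mouse, at least 2.05-fold higher than in AGED females. It was tested only because of the MAT females, so its p and lack of overlap cannot serve as support for a change. Of these markers 6 were well above background on all 16 arrays. The part of adipose tissue in the levels of Ntrk2 and Ntrk3 was not tested.

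Ngfr was measured by a probe spotted 8 to 10 times on each array, and these spots agreed within an SD of 0.08 on the median array. Its values were 0.11, -1.42, -1.23 and 0.55 in MAT males and -1.30, 0.51, -1.50 and 0.22 in AGED males. In females they were 0.50, 0.01, 0.20 and 0.23 at maturity and -1.12, -0.22, 0.23 and -0.59 at old age. Each male group held a pair of mice above 0 and a pair below -1.2, the MAT females lay close together, and AGED female 3 alone of the AGED females reached the MAT female range. The changes were -0.02 (95% interval -1.09 to 1.04, limma adjusted p = 0.989) in males and -0.66 (-1.73 to 0.40, limma adjusted p = 0.707, exact permutation p = 0.0857) in females.

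The genes with the pattern most like that of Ngfr over the 16 arrays, among 13389 genes well above background on all of them, were Tubb3 (r = 0.926), Nrsn1 (r = 0.924) and Prph (r = 0.913). Tubb3 is a neuronal tubulin and Prph encodes peripherin, an intermediate filament of peripheral neurons. Within the groups, the correlations were 0.912, 0.945 and 0.944. These points share arrays and scaling, and the genes were picked from the same arrays for their likeness. The level of the 19 neuron markers, which include Tubb3 and Prph, was 0.35, -0.28, -0.61 and 0.27 in MAT males and -0.80, 0.36, -0.63 and 0.05 in AGED males. The males with high Ngfr were those with a neuron level above 0. In females the neuron level was -0.01 to 0.48 at maturity and -0.54 to -0.03 at old age.

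**Figure D4:**
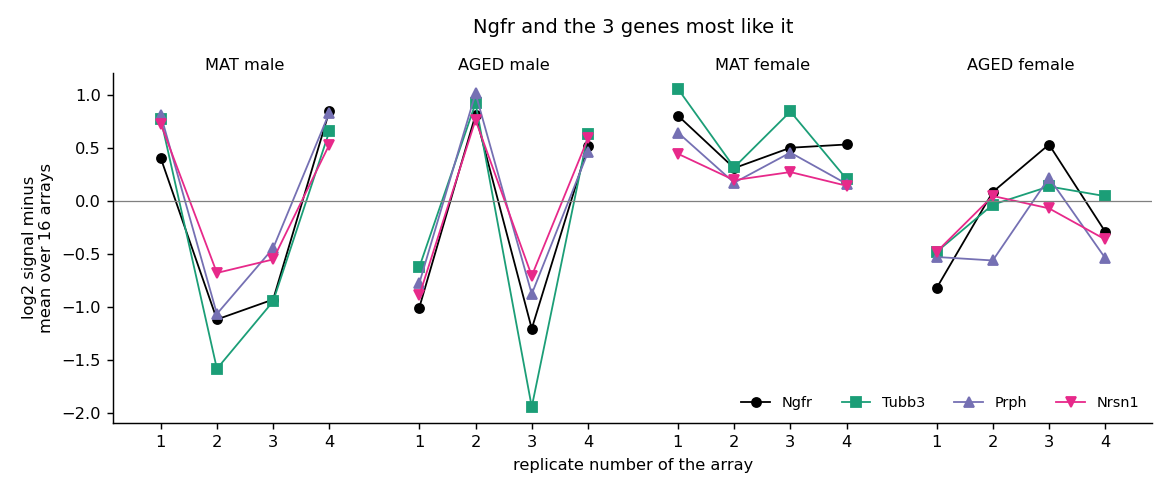
Log2 signal of Ngfr, Tubb3, Prph and Nrsn1 in each mouse (horizontal axis, by group and replicate number), less the mean of each gene over the 16 arrays (vertical axis). Lines only join mice of 1 group and imply no order. All 4 genes are low in MAT males 2 and 3 and in AGED males 1 and 3.

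In males 2 of the 19 neuron markers were called, both lower in AGED mice, while 10 of the 19 had a change above 0. Of all genes tested in males, 0.851% were called, 0.575% in the lower direction. Nefh, a neurofilament subunit, changed by -1.49 (limma adjusted p = 0.00928) and Stmn2, a microtubule regulator of growing axons, by -1.08 (limma adjusted p = 0.0359). The list's median change was 0.02 in males and -0.44 in females, beside 0.00 and -0.01 over all genes tested. No neuron marker was called in females, where the brightest markers Snap25 and Uchl1 changed by -0.52 and -0.31, and 11 of the 19 were well above background on all 16 arrays. The 14 markers of peripheral glia, which carry Ngfr in many nerves, had median changes of -0.30 and -0.10 with no call. The brightest glial markers Pmp22 and Mbp changed by -0.08 and 0.14 in females. At an unadjusted limma p under 0.05, 5 of the 14 glial markers were lower in AGED females, and 1 was higher and 1 lower in AGED males. Of all genes tested, 5.85% were lower in females at that p, and 7.86% were higher and 8.36% lower in males. The part of nerve content in the levels of Ngfr, Ntrk3 and Ntf3 was not tested.

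Ret was measured at -2.34, -2.26, -2.75 and -1.11 in MAT males, -1.47, -0.94, -4.77 and -1.32 in AGED males, -1.41, -2.11, -1.18 and -1.72 in MAT females and -0.96, -1.48, -1.89 and -2.05 in AGED females. AGED male 3 lay far below all other mice and was not well above background, and the remaining 3 AGED males lay among the upper mice. The changes were -0.01 (95% interval -1.39 to 1.37) in males and 0.01 (-1.37 to 1.39) in females, with limma adjusted p values of 0.996 and 0.998. Without AGED male 3, the male change was 0.87 (limma adjusted p = 0.242, the lowest over all alternatives).

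Likeness over the 16 arrays was described for the other genes measured on all arrays in the same way. Ntf3 varied most like Abca8b (r = 0.891), Neurl1a (0.881) and Mcm3ap (0.877), and Ntrk3 most like Isl1 (0.923), Ptgir (0.884) and Lpl (0.871). Ntrk2 varied most like Arxes2 (0.903), Tfr2 (0.882) and Cd1d1 (0.828). Bdnf had weaker neighbours in Pxdc1 (0.811), Pim1 (0.797) and Lratd2 (0.785). Artn varied most like Zfp236 (0.923), Rnf214 (0.892) and Diablo (0.89), values that fell to 0.802, 0.713 and 0.7 without AGED male 1. Lpl is an adipocyte marker of the list above.

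The wider pathway was taken as 62 further genes, of which 54 were tested. No gene of it was called in either sex. At an unadjusted p under 0.05, 6 were higher and 7 lower in AGED males and 3 higher and 1 lower in AGED females. Over all genes tested these shares were 7.86% and 8.36% in males and 4.61% and 5.85% in females. The median change was -0.11 in males and -0.02 in females, beside 0.00 and -0.01 over all genes.

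The other ligands included Nrtn, which signals through Ret. In males it changed by -0.49 with a limma adjusted p of 0.213, and it was named after its values were seen. In females it changed by -0.11. The 5 tested ligands of this list had a median of -0.29 in males and -0.11 in females. Among 11 further receptors and co-receptors (medians -0.22 and -0.05), Gfra1, the GDNF co-receptor, changed by 0.70 in males (limma adjusted p = 0.241) and Gfra2, which serves neurturin, by -0.61 in females (limma adjusted p = 0.614).

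Processing enzymes cut neurotrophin precursors, from which mature and precursor forms with different receptors arise. Mmp7, a metalloprotease of this group, changed by 2.82 in males (limma adjusted p = 0.0699). It was well above background in no MAT male and in 3 AGED males, at least 3.97-fold higher. In females it was near background (1 MAT and 0 AGED arrays) with a change of 0.64. Mmp7 met the filter of 4 arrays only through the AGED males, where it is high. Its p in males therefore cannot serve as support for a rise. Pcsk5, a proprotein convertase, changed by 0.69 in males (limma adjusted p = 0.519) and by 1.26 in females (limma adjusted p = 0.40), where MAT female 4 was low at -3.82. Plat, the tissue plasminogen activator, changed by -0.74 in males and 0.74 in females (limma adjusted p = 0.253 and 0.421). The 8 enzymes had medians of -0.06 and 0.43.

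The largest falls of the wider list were among transcription factors and targets that neurotrophin signalling, like many other stimuli, induces within minutes. In males Egr1 changed by -2.30 (limma adjusted p = 0.0742), Arc by -1.86 (0.173) and Fos by -1.73 (0.391). Egr1 was 2.88, 6.01, 4.68 and 2.86 in MAT males and 1.40, 2.11, 2.21 and 1.51 in AGED males, with no overlap and with MAT male 2 the highest. Of all genes tested in males, 7.82% had groups that did not overlap, 3.91% with all AGED mice lower. In females Arc and Fos changed by -0.96 and -0.88 (limma adjusted p = 0.658 and 0.821). The 12 genes of this list had medians of -0.30 and -0.04. The 18 adaptors and effectors, which couple the receptors to their kinase cascades, had medians of -0.06 and 0.01, and 3 of them were higher and 1 lower in AGED males at an unadjusted p under 0.05.

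**Figure D5:**
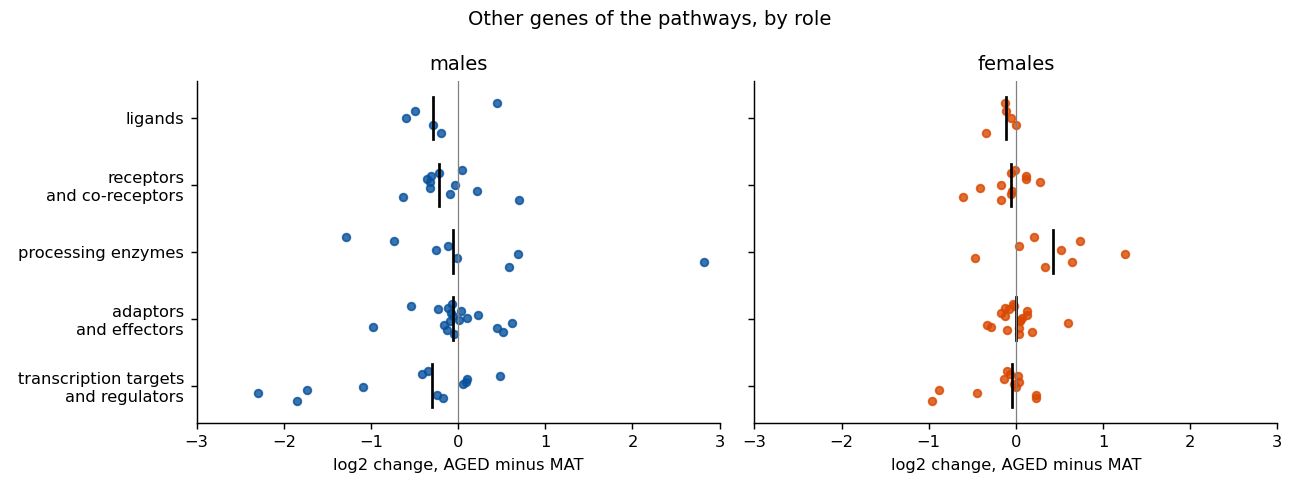
Log2 change from MAT to AGED (horizontal axis) of 54 further genes of the pathways by role (vertical axis), in males and in females. Each point is 1 gene and the vertical bars are medians. The points of Mmp7 (2.82, not well above background in any MAT male) and Egr1 (-2.30) in males stand apart, and neither gene was called. Mmp7 was tested only because of the AGED males in which it is high.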

How the data were processed

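Total RNA of 16 bladders was labelled with Cy3 and hybridised by the authors, who extracted the scans with Feature Extraction (10.7.3.1 per the file headers, 9.1 in the submitters' processing notes). The authors deposited a processed intensity per spot, already background-subtracted, with raw intensities and flags. They also deposited a table of log2 values, which, once each probe of the scaled scanner values was centred on its own median, differed from them by at most 0.0135 in the median.

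From the 62976 spots per array, log2 processed signals were taken, flagged spots left out (399 probe values) and the 75th percentile of each array subtracted. Replicate spots were averaged. No spot was saturated. Of 55681 probes, 26582 were named through RefSeq accessions (GRCm38.p6, for names only, since the array design uses another build). The 36972 probes well above background on at least 4 of 16 arrays were kept, and for each of 26781 genes the kept probe brightest on average entered the test.

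Groups were compared with limma 3.58.1 (R 4.3.3) in 1 model of 4 group means with 12 residual degrees of freedom. A call required an adjusted p (Benjamini-Hochberg) under 0.05 and a change of 2-fold or more. The difference between the sexes had no fold limit. Intervals are 95% and unadjusted. Permutation tests were exact and two-sided. The p-values measure the spread between mice, 4 per group, and this number limits the precision. Levels of males and females were not tested against each other. A fold written as "at least" raises each dim array to its lowest signal well above background, where the probe lay under that.

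The members and the lists (wider pathway by role, and markers of neurons, peripheral glia, adipocytes, urothelium, smooth muscle, fibroblasts, macrophages and skeletal muscle) were chosen with earlier results of these data known. All members were named, and of the wider list the called genes and the 3 largest rises and falls per sex. Of marker lists the 2 brightest genes were named. The values of some genes of these lists are not reported here. For each member measured on all arrays, the 3 most correlated genes were named. The procedure was tested on simulated data. Alternatives covered scaling, background correction, filters, a floor, probe choice, array weights, a variance trend, the methods' t-test, each sex alone, a replicate block and each array left out.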

Additional observations from a re-analysis of the deposited data

Results flagged for a closer look

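Of 48 groups of 4 arrays checked for a mouse that stands apart, 2 were marked, and chance marks about 1 in 20 such groups. For Ret in AGED males, the gap between AGED male 3 (-4.77) and the next mouse (-1.47) was 0.863 of the range of the group. This array was not well above background for Ret, and it was also low for Ngfr (-1.50) and had the lowest adipocyte level (-3.25) of all 16 arrays. For the Ntrk3 probe A_52_P500274 in MAT males, the gap between MAT male 2 (-3.62) and the next mouse (-3.07) was 0.839 of the range. That mouse was also the lowest MAT male for the tested Ntrk3 probe (-3.12).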

How the results depend on the processing

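Ntf3 in males kept its direction under all alternatives, from -1.24 to -0.71, and lost the call with the males alone (limma adjusted p = 0.218), with the replicate number as a block (0.0608), under the methods' t-test after adjustment (0.348), under normexp (-0.71, under 2-fold) and without AGED male 4 or any 1 MAT male. The cause was not tested. Artn in males was called under normexp alone (-1.49). The number of the 8 genes called in males (1) became 0 with the males alone, under the replicate block and under the adjusted t-test. It became 2 by limma's unadjusted p with the 2-fold limit kept, and 0 to 1 with 1 array left out. For the difference between the sexes it became 2 by unadjusted p. No member was called in females under any alternative.

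Replicate numbers did not pair the mice: the correlation of deviations between mice of the same number ran from -0.148 to 0.066. The block moved the calls over all genes in females from 51 to 3 and in the difference from 40 to 12. Counts within a sex kept the 2-fold limit, also those by unadjusted p, except where no fold limit is named. Calls over all genes in males (228) were 756 under normexp, 552 with no filter on dim probes, 461 with no fold limit, 751 by limma's unadjusted p, 496 by the t-test before and 0 after adjustment, 11 with the males alone and 123 to 377 with 1 array left out (123 without MAT male 3, 377 without AGED male 2). In females they were 18 with no filter, 26 with a floor, 194 with array weights, 506 by unadjusted p, 394 by the t-test before and 1 after adjustment, 99 with the females alone and 1 to 120 with 1 array left out (120 without AGED male 1). For the difference they were 462 under normexp, 7 with no filter, 78 with a filter on all 16 arrays, 78 with a floor, 25 with probes averaged, 253 with array weights, 67 with a variance trend, 2644 by unadjusted p and 6 to 269 with 1 array left out (269 without AGED male 1).

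Changes near 0 turned direction, none with a call. Under normexp, which moved the median of all genes in males by 0.12, these were in males Gdnf 0.19, Ntrk2 0.0448, Ntrk3 0.11, Ngfr 0.0895 and Ret 0.0769, in females Ret -0.0452, and in the difference Gdnf 0.0765 and Ret 0.12. Under array weights they were in males Gdnf 0.22, Ntrk2 0.13, Ntrk3 0.0163, Ngfr 0.42 and Ret 0.46, and in the difference Gdnf 0.15 and Ret 0.43. With a floor they were Ret 0.0026 in males, Gdnf -0.0303 in females and Gdnf 0.0287 in the difference. Median scaling gave Ret -0.0062 in females, and averaging probes gave Ntrk3 0.18 in males. With 1 array left out the ranges were in males Ntrk2 -0.21 to 0.14, Ntrk3 -0.19 to 0.17, Ngfr -0.37 to 0.33 and Ret -0.40 to 0.87, in females Ret -0.20 to 0.16, Gdnf -0.0103 to 0.26 and Ntrk2 -0.38 to 0.0236, and in the difference Ret -0.41 to 0.86 and Ntrk2 -0.11 to 0.38. Gdnf, Ret and 1 probe each of Ntrk2 and Ntrk3 were not well above background on some or all arrays, which limits what can be seen of them.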

Other observations

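Markers of the other cell types of the wall moved as follows. Macrophage markers (9 tested) had median changes of 0.24 in males and 0.37 in females with no call, and their brightest genes Csf1r and C1qc changed by 0.38 and 0.53 in males and by -0.08 and 0.47 in females. At an unadjusted p under 0.05, 1 macrophage marker was lower in AGED males (Mrc1, -0.47) and 3 were higher in AGED females with no overlap (Fcgr1 1.72, C1qa 0.80 and C1qb 0.80), all named after their values were seen. Of all genes tested, 8.36% were lower in AGED males and 4.61% higher in AGED females at that p. In females 10.8% of all genes had groups that did not overlap, in either direction. AGED male 1 had the highest macrophage level of the 16 arrays (1.05) and was the lowest mouse for Artn, Gdnf and Ntrk2. It was also the dimmest array, with 52.3% of its probes well above background, and Gdnf was not among these. A link between these levels was not tested. Fibroblast markers (10 tested) had medians of -0.37 and -0.07, with Dcn and Col1a2 at -0.29 and -0.46 in males, and no call. At an unadjusted limma p under 0.05, 4 of the 10 were lower in AGED males and 1 in AGED females, and none was higher. Of all genes tested in females, 5.85% were lower at that p. Smooth muscle markers had medians of 0.02 and 0.02, with Cnn1 and Tagln at 0.04 and 0.19 in males, and urothelial markers 0.11 and 0.17, with Upk1a and Krt18 at -0.08 and 0.32. Skeletal muscle markers (7 tested) had medians of -0.27 and -0.03, with Acta1 and Tnni2 at -0.85 and 0.28 in males. At an unadjusted limma p under 0.05, 2 skeletal muscle markers and 1 urothelial marker were lower in AGED males. In AGED females 1 smooth muscle marker was lower and 1 urothelial marker higher at that p. No gene of these lists was called in either sex.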
